A study of Mus musculus with 46 samples.

Results

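The 10 genes described here are expressed by conventional dendritic cells, and they are 10 of the 46011 complete rows of the deposited count table. They were listed by name and include a growth factor receptor (Flt3), 3 transcription factors (Batf3, Irf8 and Irf4), an integrin chain (Itgax), a lysosomal enzyme (Naaa) and 4 C-type lectins (Clec9a, Cd209a, Clec10a and Mgl2). RNA was sequenced from 46 subcutaneous AB1-HA tumors, a murine mesothelioma line that carries influenza hemagglutinin, in male BALB/c mice of 8 to 10 weeks that bore a tumor on each side. All mice received cyclophosphamide (CY) at 200 mg/kg on day 10 after inoculation. A single tumor of each mouse was excised and sequenced, and the tumor left in place was the read-out: complete responders (CR), or PR, which the paper calls progressors and the series text partial responders. There were 13 CR and 13 PR tumors excised 1 day before CY (day 9 after inoculation), while 3 days after CY (day 13) and 7 days after it (day 17) 5 tumors of each response were taken, again 1 to a mouse. No tumor came from a mouse without CY at these days, so time after CY cannot be told apart from the age and size of the tumor. The line is transplanted, so all tumors derive from 1 cell line.

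Conventional dendritic cells take up antigen, carry it to lymph nodes and present it to T cells. They arise in bone marrow under Flt3 ligand. Type 1 cells depend on Batf3 and Irf8 and present antigen of dead cells to CD8+ T cells, while type 2 cells depend largely on Irf4 and mainly prime CD4+ T cells. In tumors they are rare beside macrophages, which share several of their surface genes, Itgax and the lectin Mgl2 among them.

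Start regions are shown for the 4 members whose promoter held a searched motif, and for Mgl2, which rose most at day 7 among the members without a match. Promoters of 250 bases before to 50 bases after the start site were taken from RefSeq (GRCm38.p6, the build of the deposited counts), and 9 of the 10 members had an entry, Irf8 with 2. Capitals mark matches, on either strand, to motif cores that were searched: GAGGAAG (PU.1), GAAANNGAA (core of the interferon stimulated response element), TGANTCA (AP-1 and BATF) and GGAANNGAA (ETS-IRF composite core). No matches overlapped each other in the members. Sequences run 5′ to 3′ on the strand of the gene: Batf3 lies at chr1:191098164-191098463 on the plus strand, Clec9a at chr6:129408612-129408911 on the plus strand, Itgax at chr7:128129300-128129599 on the plus strand, Cd209a at chr8:3748935-3749234 on the minus strand and Mgl2 at chr11:70130107-70130406 on the plus strand.
Batf3: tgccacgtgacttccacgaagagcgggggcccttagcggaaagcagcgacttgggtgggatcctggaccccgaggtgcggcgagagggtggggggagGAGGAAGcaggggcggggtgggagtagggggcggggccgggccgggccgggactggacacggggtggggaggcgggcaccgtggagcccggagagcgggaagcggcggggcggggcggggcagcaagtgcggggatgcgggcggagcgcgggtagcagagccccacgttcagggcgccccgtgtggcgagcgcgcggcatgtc
Clec9a: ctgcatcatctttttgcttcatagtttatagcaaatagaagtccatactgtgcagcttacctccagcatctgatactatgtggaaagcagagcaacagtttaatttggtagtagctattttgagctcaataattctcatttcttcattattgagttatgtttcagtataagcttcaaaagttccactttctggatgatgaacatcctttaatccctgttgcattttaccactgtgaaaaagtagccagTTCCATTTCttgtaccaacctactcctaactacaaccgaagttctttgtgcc
Itgax: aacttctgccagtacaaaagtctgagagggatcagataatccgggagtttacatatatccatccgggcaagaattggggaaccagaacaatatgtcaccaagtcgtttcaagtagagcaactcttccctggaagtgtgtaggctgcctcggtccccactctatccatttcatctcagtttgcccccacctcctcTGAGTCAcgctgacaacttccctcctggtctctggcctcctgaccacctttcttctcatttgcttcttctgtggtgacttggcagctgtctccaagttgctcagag
Cd209a: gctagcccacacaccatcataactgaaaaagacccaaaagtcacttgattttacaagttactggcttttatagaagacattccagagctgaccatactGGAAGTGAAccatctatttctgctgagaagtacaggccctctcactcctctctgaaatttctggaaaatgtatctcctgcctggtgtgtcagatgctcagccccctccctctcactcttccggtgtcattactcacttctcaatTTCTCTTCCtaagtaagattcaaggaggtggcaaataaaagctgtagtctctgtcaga
Mgl2: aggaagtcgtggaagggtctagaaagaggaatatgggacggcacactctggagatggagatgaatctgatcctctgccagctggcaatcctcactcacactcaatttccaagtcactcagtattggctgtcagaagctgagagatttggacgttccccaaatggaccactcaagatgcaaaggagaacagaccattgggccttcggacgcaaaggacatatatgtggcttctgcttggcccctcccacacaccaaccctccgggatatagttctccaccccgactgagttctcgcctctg

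Each of the 4 cores was found in 1 member. GAGGAAG stood in the Batf3 promoter and in 13.6% of all 32851 promoters of the table, and GAAANNGAA in the Clec9a promoter, across the start site, and in 8.56% of all promoters. TGANTCA was in the Itgax promoter and in 7.81% of all, and GGAANNGAA occurred at 2 places in the Cd209a promoter and in 8.24% of all promoters. The Mgl2 promoter, like those of Flt3, Irf8, Irf4 and Naaa, held none of these letters in this window.

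All 10 members are protein-coding genes and passed the filter on low counts in every comparison. Clec10a (chr11:70156197-70170834, GRCm38) and Mgl2 (chr11:70130329-70137550) are neighbouring paralogs, and of the distinct runs of 31 exonic bases 14.8% in Clec10a and 22.8% in Mgl2 also occurred in other genes, with 419 runs shared between the pair. Reads could therefore be split between these genes, so both were also tested as a sum. For Itgax 10.7% of the runs were shared, all with Itgad, whose level never exceeded 1.54 CPM, the unit of all levels here, in which counts are scaled to a fixed library total. Clec9a shares 184 exonic bases with Clec1b on the same strand (4.63% of its runs), and Clec1b never exceeded 3.09 CPM.

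Counts summed over the rows covered were about 10227700 to 14219000 per tumor before CY, 15412700 to 18748700 at day 3 and 16047900 to 19446600 at day 7. Every tumor taken after CY thus had a higher total than every tumor from before it, so depth also went with time. Libraries were scaled by the TMM method, and a gene was called at a false discovery rate (FDR) under 0.1 in edgeR's quasi-likelihood test over all genes that passed the filter. Genes are ordered alphabetically and the last row is Pax7, so Xcr1, Zbtb46 and other dendritic cell genes that sort later were not analysed here. Msln, the mesothelin gene that marks the tumor line, had medians of 375, 351 and 58.7 CPM on the 3 days. Keratinocyte RNA varied between tumors: the summed level of 8 keratinocyte genes, Krt5 among them, ran from 2.14 to 699 CPM before CY. No library was a copy of another, since among 1035 pairs even the closest pair differed with a chi-square of 3.78 for each degree of freedom.

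Before CY the members were low to moderate. Divided by exon length, the median level over the 26 tumors ran from 21.7 CPM per kilobase for Naaa and 13.7 for Mgl2, through 9.70 for Irf8 and 6.96 for Itgax, down to 1.75 for Clec9a, 1.36 for Irf4 and 0.747 for Batf3. At day 7 the same length-scaled medians were led by Mgl2 (759), Naaa (321) and Itgax (142), and Batf3, the last before CY, stood sixth at 48.5 CPM per kilobase. Flt3 came last at day 7 with 8.00. The summed level of the 10 genes was 117 to 457 CPM before CY, 160.5 to 345 CPM at day 3 and 2394 to 6089 CPM at day 7.

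Between the day before CY and day 7 all 10 members rose, from 3.63-fold for Flt3 to 65.2-fold for Batf3, and in each of them every day 7 tumor lay above every tumor from before CY. Of all 13194 genes tested, 43% rose, 42.8% fell and 20.1% lay wholly above the earlier tumors without overlap. The median log2 fold change was 3.91 over the members and -0.0064 over all genes. At day 3 the same genes were divided: 3 rose (Batf3, Clec10a and Irf8), 4 fell (Cd209a, Flt3, Clec9a and Naaa) and 3 were not called. Of all genes 37.9% rose and 39.6% fell at day 3, so the members' counts were near the background. No member was free of overlap at day 3, where 13.7% of genes lay wholly above and 13.2% wholly below. From day 3 to day 7 all 10 members rose again without overlap, against 38.8% of genes that rose and 18% wholly above, by 2.78 (Flt3) to 5.71 (Mgl2) on the log2 scale. In bulk tumors, more cells of a type, more RNA per cell and a smaller share of tumor cell RNA cannot be told apart. A list of 7 mesothelioma and mesothelial genes was made up mostly of Msln by median level. Its summed level was 286 to 613 CPM before CY and 52.9 to 135 CPM at day 7. The part of that fall in the members' rise was not tested.

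**Figure D1:**
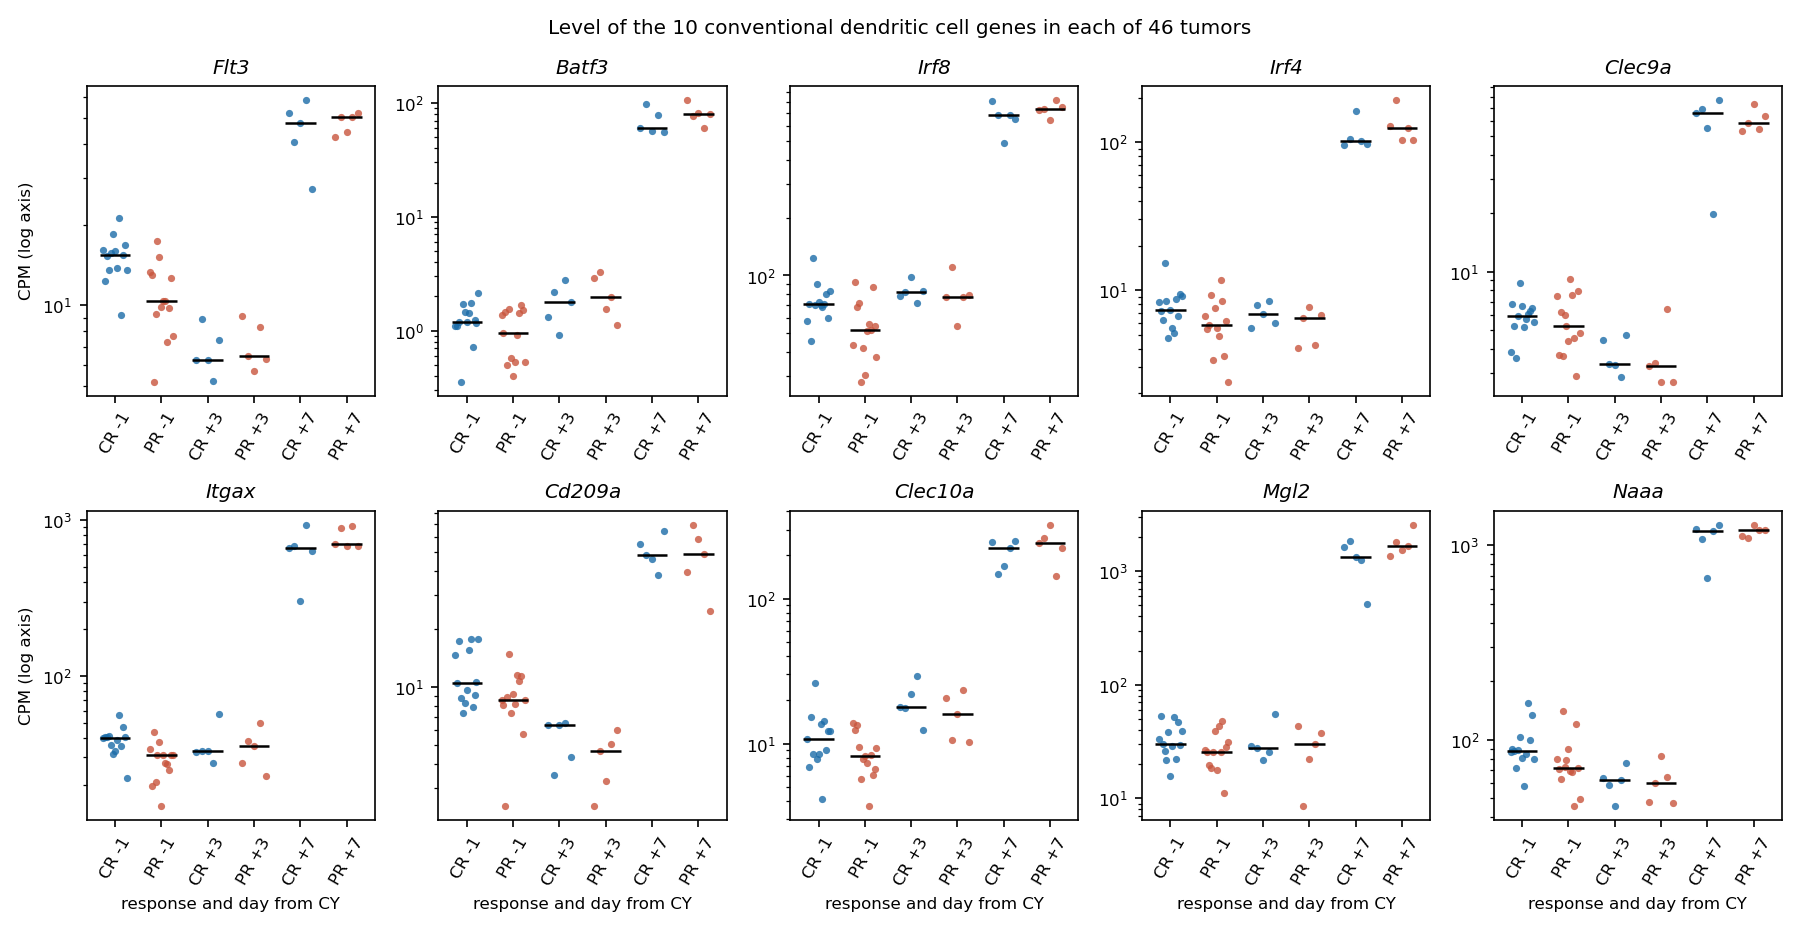
CPM of each of the 10 genes (log axis, a panel per gene) in each tumor, grouped by response (CR in blue, PR in red) and day from CY. Black lines are group medians of 13 tumors before CY and 5 tumors later, and in each panel the 10 tumors of day 7 stand above all others.

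Flt3 encodes the receptor tyrosine kinase through which Flt3 ligand expands dendritic cell precursors. Before CY it was at 9.22 to 21.1 CPM in the 13 CR tumors (median 15.4) and 5.19 to 17.4 CPM in the 13 PR tumors (median 10.4). At day 3 the CR tumors held 5.24, 6.24, 6.27, 7.43 and 8.91 CPM and the PR tumors 5.68, 6.31, 6.49, 8.27 and 9.16 CPM. At day 7 they held 27.1, 40.7, 48.2, 52.4 and 58.5 CPM (CR) and 42.6, 44.3, 50.7, 50.7 and 52.4 CPM (PR). Levels were thus lowest at day 3, where all 10 tumors lay below every CR tumor of the day before CY and overlapped only PR tumors, and highest at day 7. Flt3 was at 0.529 (95% interval 0.439 to 0.637) times its earlier level at day 3 (adjusted p = 4.91e-08) and rose 3.63-fold (95% interval 3.09 to 4.26) by day 7 (adjusted p = 2.55e-19), the least of the 10 members. Flt3l, the ligand, had median levels of 26.03 CPM before CY, 30.8 CPM at day 3 and 75.3 CPM at day 7.

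The transcription factors took different courses at day 3 and rose together by day 7. Batf3, the partner of AP-1 factors on which type 1 cells depend, was near the limit of counting before CY, at 0.358 to 2.15 CPM in CR tumors and 0.400 to 1.67 CPM in PR tumors, down to 4 counts in a tumor. At day 3 it was at 0.922, 1.32, 1.78, 2.20 and 2.79 CPM in CR and 1.13, 1.54, 1.96, 2.92 and 3.25 CPM in PR tumors. These ranges overlapped those from before CY, with the upper day 3 tumors above them. At day 7 the CR tumors held 55.2, 57.2, 60.4, 78.5 and 98.3 CPM and the PR tumors 60.2, 76.6, 79.1, 81.1 and 106 CPM. Batf3 rose 1.68-fold (95% interval 1.28 to 2.20) at day 3 (adjusted p = 7.00e-04) and 65.2-fold (95% interval 52.3 to 81.4) by day 7 (adjusted p = 5.84e-33), and its log2 fold change at day 7 ranked above 99.6% of the genes tested. Batf, a relative that can stand in for Batf3, rose by 1.02 on the log2 scale at day 3 and by 3.04 by day 7.

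Irf8, which specifies type 1 cells and is also used by monocytes and B cells, was at 45.3 to 124 CPM in CR tumors before CY and 28.0 to 92.8 CPM in PR tumors. The day 3 tumors stood within that span, with 72.2, 78.0, 82.3, 82.8 and 98.5 CPM in CR and 54.4, 77.0, 77.4, 79.5 and 111 CPM in PR. The rise at day 3 was 1.23-fold (95% interval 1.02 to 1.48, adjusted p = 0.038), and without the PR tumor CT3_9, the highest of that day, the adjusted p was 0.124. At day 7 Irf8 was at 490.3, 657, 686, 686 and 812 CPM in CR and 649.6, 726, 737, 754 and 821 CPM in PR tumors, 10.95 times (95% interval 9.22 to 13.0) its level before CY. Irf4, the factor of type 2 cells that T cells and macrophages also use, did not pass the test at day 3: its log2 fold change was -0.17 ± 0.167 (adjusted p = 0.353). The day 3 values of 5.58, 5.97, 6.88, 7.94 and 8.50 CPM in CR and 4.03, 4.28, 6.44, 6.83 and 7.68 CPM in PR lay inside the range of 2.41 to 15.2 CPM before CY. By day 7 Irf4 stood at 96.3, 97.7, 102, 105 and 163 CPM in CR and 104, 104, 124, 129 and 192 CPM in PR tumors and had risen 17.3-fold (95% interval 14.2 to 21.1). Of 16 other transcription factors of dendritic cell development, 2 rose and 7 fell at day 3, and 13 rose and 2 fell by day 7. Nfil3 (log2 fold change 2.81), Batf and Etv6 (1.27) had the smallest p at day 7, and Notch2 (-0.45), Batf and Junb (-0.68) at day 3.

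Clec9a encodes DNGR-1, a lectin of type 1 cells that binds actin filaments exposed by dead cells. It was at 3.58 to 8.73 CPM in CR and 2.88 to 9.21 CPM in PR tumors before CY. At day 3 it was at 2.87, 3.30, 3.32, 4.46 and 4.71 CPM in CR and 2.70, 2.70, 3.25, 3.38 and 6.39 CPM in PR tumors. All but the PR tumor CT3_9 were then below the earlier medians of both groups, and Clec9a had fallen to 0.627 (95% interval 0.495 to 0.794) times its level (adjusted p = 4.70e-04). At day 7 the CR tumors held 19.9, 55.1, 65.8, 69.2 and 76.8 CPM and the PR tumors 53.1, 54.6, 58.2, 63.9 and 73.4 CPM. The CR tumor CT7_6 stood apart below the other 9, which did not separate by response. The rise from before CY was 10.2-fold (95% interval 8.40 to 12.5, adjusted p = 1.98e-25).

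Naaa, a lysosomal amidase that breaks down fatty acid ethanolamides, was at 58.2 to 155 CPM in CR and 45.5 to 141 CPM in PR tumors before CY, well above Clec9a. It fell to 0.686 (95% interval 0.568 to 0.828) times that level at day 3 (adjusted p = 4.08e-04), with 45.5, 58.5, 62.1, 63.7 and 76.3 CPM in CR and 47.6, 47.8, 59.8, 64.6 and 83.0 CPM in PR tumors. At day 7 it reached 679, 1083, 1191, 1209.7 and 1267 CPM in CR and 1095, 1115, 1195, 1198 and 1274 CPM in PR tumors. CT7_6 was again the lowest, and the rise was 13.1-fold (95% interval 11.1 to 15.5). Of 12 other type 1 genes tested, 8 fell and 1 rose at day 3, and 11 rose and 1 fell by day 7. The smallest p at day 3 belonged to Itgae, the CD103 integrin chain (log2 fold change -1.04), Btla (-1.23) and Gcsam (-1.59). At day 7 Nfil3, Id2 (2.33) and Cd24a (3.17) led.

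Itgax encodes CD11c, the integrin chain on which dendritic cells are commonly gated and which tumor macrophages also carry. It was at 22.2 to 55.8 CPM in CR and 14.5 to 43.8 CPM in PR tumors before CY and was not called at day 3, where the log2 fold change was 0.048 ± 0.139 (adjusted p = 0.767). The CR tumors of day 3 held 27.5, 32.5, 32.7, 33.1 and 57.1 CPM and the PR tumors 22.7, 27.6, 35.5, 38.0 and 50.2 CPM. By day 7 the levels were 303, 639.9, 663, 679.6 and 935 CPM in CR and 679.8, 684, 707, 890.2 and 919.7 CPM in PR tumors. CT7_6 lay below the other 9 again, and Itgax had risen 21.1-fold (95% interval 17.7 to 25.2, adjusted p = 1.85e-31).

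Cd209a, Clec10a and Mgl2 are lectins of type 2 and monocyte-derived dendritic cells. Cd209a, the mouse relative of DC-SIGN, was at 7.31 to 17.7 CPM in CR and 2.41 to 14.8 CPM in PR tumors before CY. Its fall at day 3, to 0.454 (95% interval 0.349 to 0.591) times that level, was the deepest among the members (adjusted p = 8.09e-07). The tumors of day 3 held 3.51, 4.35, 6.35, 6.36 and 6.55 CPM (CR) and 2.42, 3.24, 4.68, 5.09 and 5.99 CPM (PR), and lay below every CR tumor of the day before CY, overlapping only PR tumors. At day 7 Cd209a was at 38.2, 46.3, 48.3, 55.4 and 64.1 CPM in CR and 24.8, 39.6, 48.9, 58.5 and 69.2 CPM in PR tumors, a rise of 4.77-fold (95% interval 3.82 to 5.95). Its lowest tumor at day 7 was the PR tumor CT7_7, and not CT7_6.

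Clec10a and Mgl2 encode the CD301a and CD301b lectins for galactose and N-acetylgalactosamine. Clec10a was at 4.12 to 26.2 CPM in CR and 3.69 to 13.8 CPM in PR tumors before CY, and rose at day 3 to 12.4, 17.6, 17.8, 21.8 and 29.2 CPM in CR and 10.3, 10.6, 16.0, 20.7 and 23.2 CPM in PR tumors (1.74-fold, 95% interval 1.35 to 2.23, adjusted p = 1.17e-04). Mgl2 was higher before CY, at 15.6 to 52.6 CPM in CR and 11.1 to 48.5 CPM in PR tumors, and was not called at day 3 (log2 fold change -0.076 ± 0.205, adjusted p = 0.746). Its day 3 values were 21.7, 25.7, 27.8, 29.1 and 55.3 CPM in CR and 8.51, 22.3, 30.2, 37.3 and 43.3 CPM in PR tumors, with a wide spread in both groups. The sum of the pair, of which Mgl2 made up the larger share, was not called at day 3 (log2 fold change 0.19, adjusted p = 0.338). Because Mgl2 dominates it, the sum cannot decide whether reads split between the pair added to the Clec10a rise. By day 7 the order of the pair had widened. Clec10a held 148, 168, 225, 246 and 249.9 CPM in CR and 144, 224, 241, 263 and 323 CPM in PR tumors (22.3-fold, 95% interval 17.7 to 28.0). Mgl2 held 515, 1251, 1322, 1627 and 1836 CPM in CR and 1358, 1551, 1677, 1810.4 and 2557 CPM in PR tumors (49.8-fold, 95% interval 38.1 to 65.2), and the sum rose by 5.43 on the log2 scale. CT7_6 was the lowest for Mgl2 by a wide margin. Of 11 other type 2 genes, 3 rose and 3 fell at day 3, and 10 rose and 1 fell by day 7, led by Cd1d1 (log2 fold change 3.99), Cd300a (2.45) and Clec4a2 (1.52).

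**Figure D2:**
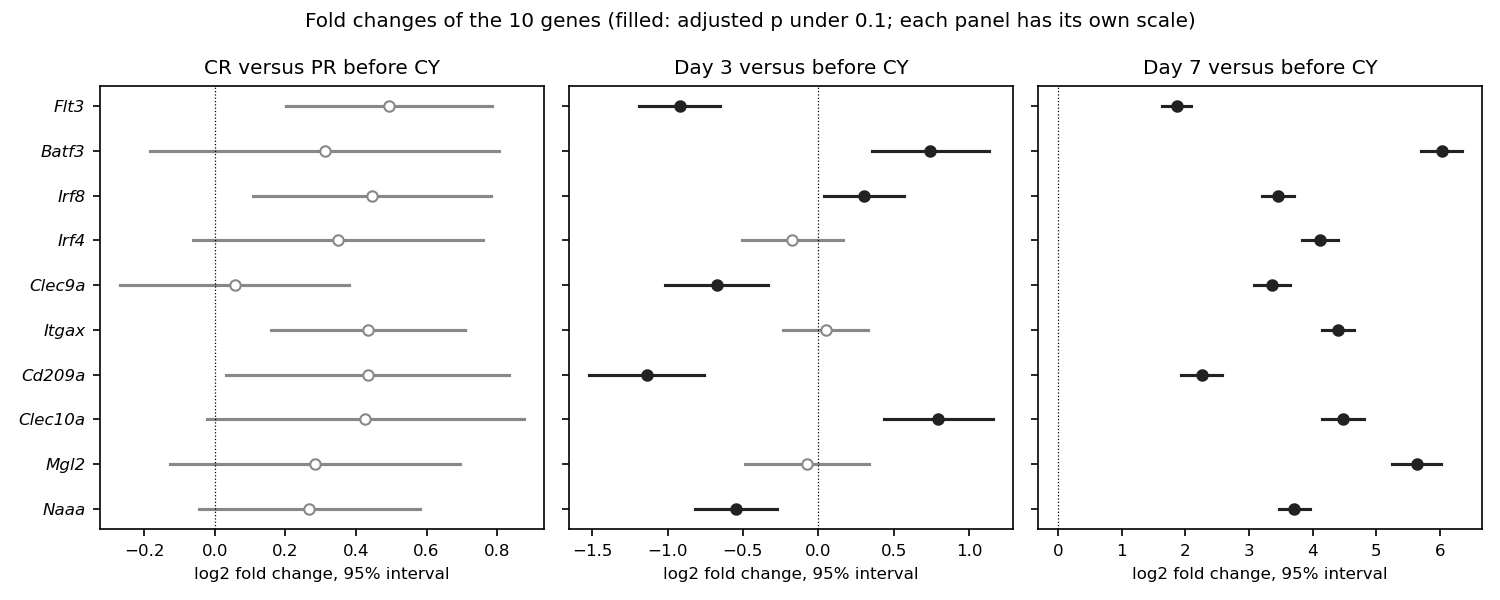
Log2 fold change of each gene with its 95% interval for CR against PR before CY, day 3 against before CY and day 7 against before CY, each panel with its own scale. Filled points passed the threshold: none of 10 in the first panel, 7 in the second and 10 in the third.

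Genes shared by all leukocytes rose as well. The summed level of 20 such genes was 2710 to 4379 CPM before CY, 3651 to 4929 CPM at day 3 and 8602 to 14105 CPM at day 7, and all 20 rose by day 7 with a median log2 fold change of 1.94, against 3.91 for the members. With the mean score of these 20 genes as a covariate, 6 members still rose at day 7, beside 15.5% of all genes: Batf3 (log2 fold change 3.28), Mgl2 (3.83), Irf4 (1.70), Cd209a (1.67), Itgax (1.07) and Naaa (0.51). Clec10a (1.13, adjusted p = 0.131) and Irf8 (0.22, adjusted p = 0.542) were no longer called. Clec9a and Flt3 then had values below 0, at -0.43 (adjusted p = 0.463) and -0.59 (adjusted p = 0.292). The score rose with day in these tumors, so the covariate and the day cannot be fully told apart. At day 3 the same covariate left Irf8 at 0.0037 (adjusted p = 0.962), added falls of Irf4 (-0.40, adjusted p = 0.0161) and Itgax (-0.29, adjusted p = 0.00231), kept the rises of Batf3 (0.48, adjusted p = 0.0148) and Clec10a (0.47, adjusted p = 0.00381), and kept the falls of Flt3 (-1.15), Clec9a (-1.05), Cd209a (-1.20) and Naaa (-0.84).

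Markers of other cells that can carry these genes moved on the same days. All 12 macrophage genes tested, of 14 listed, rose at day 3 and at day 7, with a summed level of 1796 to 4143 CPM before CY, 4765 to 7499 CPM at day 3 and 8376 to 10795 CPM at day 7. Their median log2 fold change was 0.93 at day 3 and 1.78 at day 7, and Adgre1 (F4/80) went from a median of 149.9 to 299.5 and 508 CPM, while Marco had a median of 0 before CY. All 8 neutrophil genes rose by day 7 (median log2 fold change 5.96, summed level 15.8 to 84.0 CPM before CY and 307 to 698 CPM at day 7), and Ngp had a median of 0 before CY and at day 3. Of 8 monocyte genes 5 rose and 3 fell by day 7. Ccr2 was at medians of 252, 129.8 and 924 CPM on the 3 days. Ly6c2 was at 7.66, 9.58 and 215 CPM and Ms4a4c at 34.7, 25.4 and 192 CPM. Fn1 was at 5489, 4922 and 2367 CPM and Cx3cr1 at 77.2, 69.6 and 21.2 CPM. Fn1 made up most of the summed level of this list. That level was 4460 to 7211 CPM before CY, 4603 to 5939 CPM at day 3 and 3284 to 5033 CPM at day 7. Of 10 T cell genes 7 fell at day 3 and all 10 rose by day 7 (median log2 fold change 1.80, summed level 38.8 to 189.7, 35.7 to 89.7 and 146 to 602 CPM). By day 7 all 6 natural killer cell genes tested rose, as did 9 of 10 muscle genes, while 6 of 9 B cell genes rose and 2 fell, and of 8 keratinocyte genes 1 fell. The part of macrophages, monocytes, neutrophils, T cells and the other cells in the members' changes was not tested.

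Other lists of dendritic cell genes, which share some genes with each other, gave further detail. Of 14 genes shared by conventional dendritic cells, 1 rose and 6 fell at day 3, and 12 rose and 1 fell by day 7. Napsa, an aspartic peptidase (log2 fold change 3.75), Kmo, an enzyme of kynurenine metabolism (3.11), and H2-DMb2, a chain of the peptide loader of MHC class II (4.23), had the smallest p at day 7. At day 3 these were Hmgn3 (0.55), Adam19 (-0.48) and Ciita, the master activator of MHC class II (-1.48). Of 15 genes of mature, migratory dendritic cells 10 rose and none fell at day 3, with the smallest p for Cd80 (1.59), Ccl17 (2.99) and Cd83 (1.49), the costimulatory CD80, a ligand of CCR4 and a surface marker of maturation. By day 7 all 15 had risen, with the smallest p for Ccl17 (8.16), Cd40 (3.90) and Ccl22 (3.58). Among 11 ligands and receptor chains of growth factors, 6 rose and 3 fell at day 3, and 9 rose and 1 fell by day 7. Csf2, which encodes GM-CSF, had medians of 0.192 CPM before CY, 0.875 CPM at day 3 and 12.7 CPM at day 7. Its receptor chains Csf2rb and Csf2rb2 rose by 2.77 and 2.60 on the log2 scale by day 7, and Lta by 4.27. All 10 plasmacytoid dendritic cell genes rose by day 7 as well, with a median log2 fold change of 1.80. They summed to 188 to 473 CPM before CY and 979.8 to 1772 CPM at day 7. Bst2 and Irf7 made up most of this sum, with medians of 566 and 580 CPM at day 7. All 3 Langerhans cell genes, 2 of which had fallen at day 3, also rose by day 7. Their summed level was 3.91 to 36.8 CPM before CY, 6.31 to 22.9 CPM at day 3 and 40.6 to 143 CPM at day 7. Cd207 had medians of 2.61, 1.40 and 3.70 CPM on the 3 days, Epcam 2.34, 1.87 and 27.6 CPM, and Cldn1 7.10, 4.51 and 37.6 CPM.

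**Figure D3:**
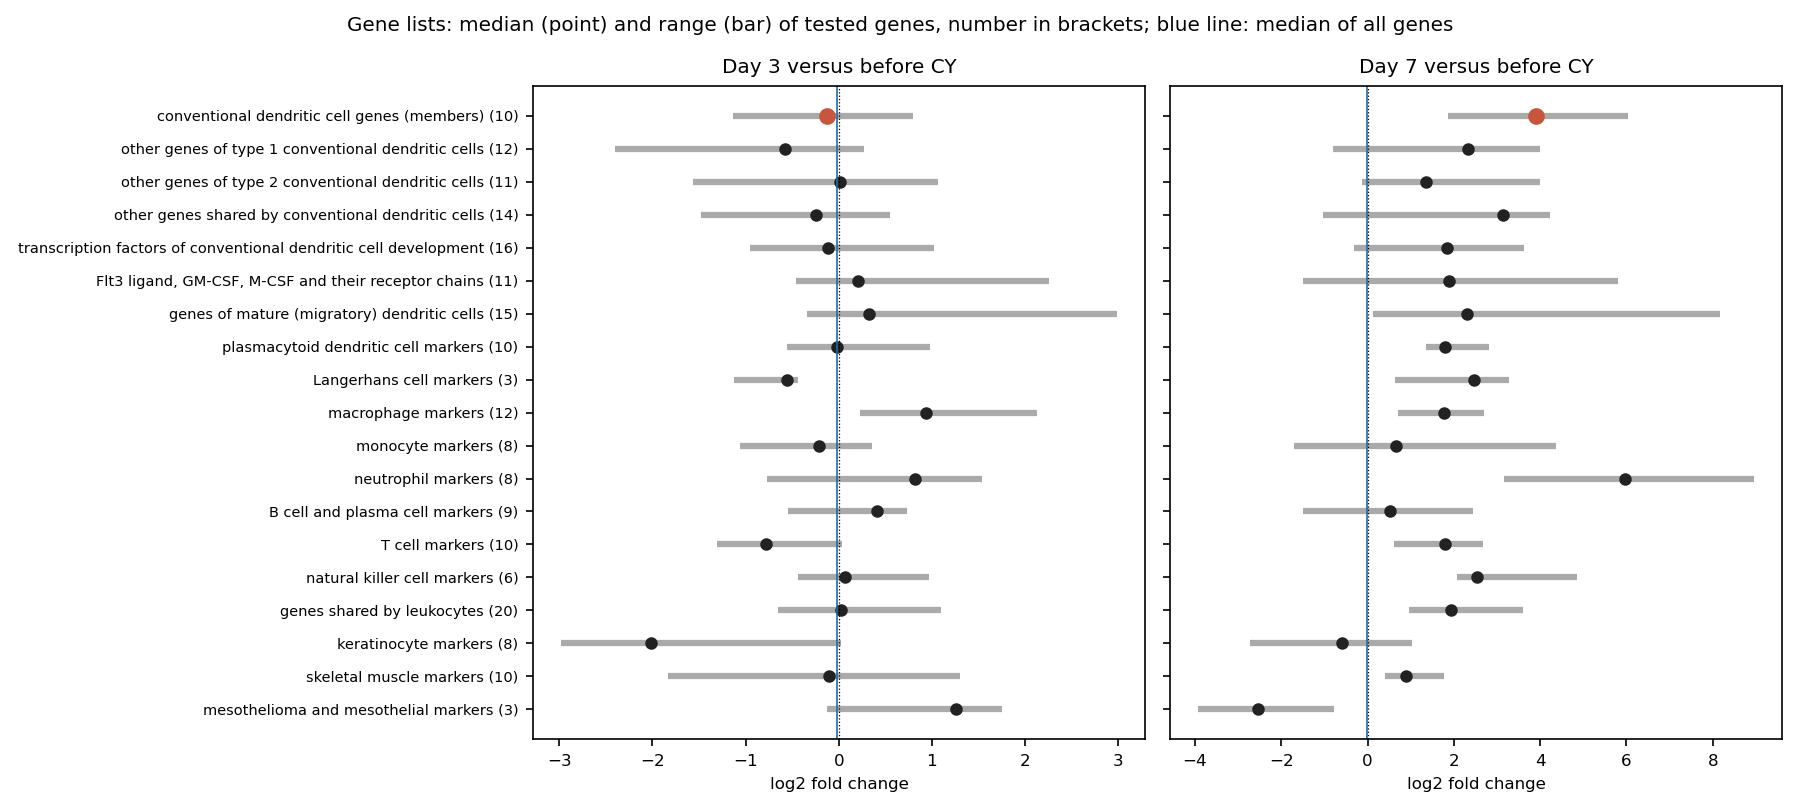
Median (point) and range (bar) of the log2 fold change over the tested genes of each list, at day 3 and at day 7 against before CY, with the number of genes in brackets and the median of all genes as a blue line. The 10 members, in red, had medians of -0.12 and 3.91.

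The comparison of CR with PR before CY asks which genes differed in tumors of mice that later responded. No member was called: edgeR called 1 of 10777 genes (0.00928%), and 1885 genes and 4 members had an unadjusted p under 0.05. All 10 members had higher fitted means in CR, with log2 fold changes from 0.056 (Clec9a) to 0.49 (Flt3) and a median of 0.39, against -0.0068 over all genes. The groups overlapped in every member, as they did in all genes tested (0% lay wholly above). Flt3 had a median of 15.4 CPM in CR and 10.4 CPM in PR tumors, a ratio of 1.41-fold (95% interval 1.15 to 1.73) with an adjusted p of 0.142. Itgax (40.2 against 30.8 CPM, 1.35-fold, 95% interval 1.12 to 1.63, adjusted p = 0.147) and Irf8 (70.8 against 52.0 CPM, 1.36-fold, 95% interval 1.08 to 1.72, adjusted p = 0.184) came next by p. For Cd209a the medians were 10.5 and 8.61 CPM (1.35-fold, 95% interval 1.02 to 1.78, adjusted p = 0.247). Clec10a (0.43, adjusted p = 0.314), Irf4 (0.35, 0.369), Batf3 (0.31, 0.52), Mgl2 (0.28, 0.47) and Naaa (0.27, 0.364) had log2 fold changes whose 95% intervals included 0. So did that of Clec9a, 0.056 ± 0.158 (95% interval -0.27 to 0.38, adjusted p = 0.887).

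These calls depended on the test and on single tumors. DESeq2 called 443 genes (4.11%) and 2 members, Flt3 (adjusted p = 0.0477) and Itgax (0.0648). Limma-voom with quality weights called 1188 genes (11%) and 3 members: Flt3 (adjusted p = 0.022), Itgax (0.0301) and Irf8 (0.0307). In edgeR, Flt3 and Itgax were called without the CR tumor CT8 (448 genes) or without the PR tumors CT16 (440 genes) or CT25 (385 genes), and Flt3, Itgax and Irf8 without the PR tumor CT12 (874 genes). The adjusted p of Flt3 ran from 0.0511 to 0.260 over the 26 fits that each left out a tumor. With the leukocyte score as a covariate 5 of the 10 members had negative values, from -0.29 (Clec9a) to -0.028 (Irf4), and Flt3 was at 0.22 (adjusted p = 0.922). The 10 T cell genes had a median log2 fold change of 0.57 in the same contrast and the 20 leukocyte genes 0.22, none of them called. Uncalled too, the medians were 0.68 over 6 natural killer cell genes, 0.45 over 8 plasmacytoid dendritic cell genes, 0.55 over 10 muscle genes, 0.62 over 5 keratinocyte genes and -0.26 over 3 mesothelial genes. The muscle genes summed to 233 to 1361 CPM in CR and 169.7 to 854 CPM in PR tumors, and with skin and muscle scores as covariates no member was called.

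A few tumors were high or low for nearly all members. Before CY the CR tumor CT10 had a mean rank of 25.5 among 26 and was the highest for 6 of the 10 genes, with a summed level of 457 CPM. The PR tumor CT2 had a mean rank of 1.6 and was the lowest for 8 genes, with a summed level of 117 CPM. The leukocyte genes summed to 4363 CPM in CT10 and to 2710 CPM in CT2, the lowest value before CY. The CR tumor CT8 was the lowest of its group for 7 members, Flt3 (9.22 CPM), Batf3 (0.358 CPM) and Clec9a (3.58 CPM) among them. At day 7 CT7_6 was the lowest of 10 tumors for 7 members and had the lowest leukocyte sum, 8602 CPM against 11730 to 14105 CPM in the others.

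After CY no member was called between CR and PR. At day 3 edgeR called 0% of 11839 genes and no member, with 256 genes and no member at an unadjusted p under 0.05. DESeq2 called 3 genes and limma-voom 0. The log2 fold changes ran from -0.25 ± 0.334 for Batf3 to 0.35 ± 0.247 for Cd209a, with Clec10a at 0.29, Irf4 at 0.26, Mgl2 at 0.18, Itgax at 0.076, Irf8 at 0.059, Clec9a at 0.026, Naaa at 0.020 and Flt3 at -0.066. At day 7 0% of 11727 genes and no member were called (333 genes and no member at an unadjusted p under 0.05), while DESeq2 called 5 genes and limma-voom 1. Here 9 of 10 members had lower fitted means in CR, from -0.45 ± 0.285 for Mgl2 to -0.075 for Clec9a, with Itgax at -0.27, Irf4 and Batf3 at -0.20 and -0.20, Clec10a at -0.20, Irf8 at -0.14, Naaa at -0.11, Flt3 at -0.079 and Cd209a at 0.076. The median was -0.17 over the members, all measured in the same tumors, and 0.0040 over all genes. Without CT7_6 the value for Mgl2 was -0.24, and those for Flt3, Clec9a and Naaa were 0.060, 0.15 and 0.020. Without the tumors over 10 CPM of Krt5, the values for Flt3, Batf3, Clec9a, Clec10a and Naaa were above 0. Those for Mgl2, Itgax, Irf4 and Irf8 stayed below 0. The 95% intervals at day 7 ran from the narrowest, -0.40 to 0.12 for Irf8, to the widest, -1.07 to 0.18 for Mgl2.

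The change of the CR to PR difference was tested directly. Against the day before CY, the difference at day 3 was called in 0% of 13194 genes and in no member (461 genes and, of the members, Flt3 at an unadjusted p under 0.05; DESeq2 called 3 genes and limma-voom 0). All 10 values were negative, from -0.57 (Batf3) and -0.57 (Flt3) to -0.037 (Clec9a). At day 7 it was called in 0.00758% of genes and in no member. There all 10 values were negative again, and Itgax (-0.70 ± 0.270, adjusted p = 0.342), Flt3 (-0.58 ± 0.245, adjusted p = 0.378) and Irf8 (-0.59 ± 0.265, adjusted p = 0.403) had an unadjusted p under 0.05, as had 1521 genes. DESeq2 called 40 genes and limma-voom 0 in this contrast. Mgl2 (-0.74), Clec10a (-0.63), Irf4 (-0.57), Batf3 (-0.52), Naaa (-0.38), Cd209a (-0.36) and Clec9a (-0.13) did not reach that level. The median over the members was -0.20 at day 3 and -0.57 at day 7, against -0.0066 and 0.00091 over all genes. Both contrasts contain the same tumors from before CY, where all 10 members had higher fitted means in CR. The shared signs are therefore not separate results.

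Among the 26 tumors before CY the members varied together to different degrees. With the mean of CR and of PR subtracted, the Pearson correlation of log2 CPM was 0.93 for Irf8 and Naaa, 0.91 for Irf8 and Clec9a and 0.88 for Irf8 and Itgax (n = 26). Cd209a and Mgl2 stood apart from this group: their r was 0.78 with each other, but 0.24 and 0.15 with Naaa and 0.39 and 0.32 with Irf8. The score of leukocyte genes had an r of 0.94 with Naaa and 0.92 with Irf8, against 0.16 with Cd209a and 0.026 with Mgl2. With the muscle score r ran from 0.20 (Mgl2) to 0.72 (Clec10a). For the macrophage score it ran from 0.55 (Cd209a) to 0.90 (Irf4), with Mgl2 at 0.67. For the T cell score it ran from 0.24 (Mgl2) and 0.35 (Cd209a) to 0.96 (Irf8). In the 10 tumors of day 7 the pair Cd209a and Mgl2 had an r of -0.0015, and Irf8 and Clec9a 0.92. There Mgl2 no longer stood apart, with r of 0.91 with Itgax, 0.83 with Naaa and 0.53 with Irf8. Cd209a had r of -0.15, -0.020 and -0.21 with the same genes. CT7_6 was the lowest tumor of day 7 for Mgl2, Itgax, Naaa and Irf8. These values describe genes measured in the same libraries, which also share their depth and their content of leukocytes.

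**Figure D4:**
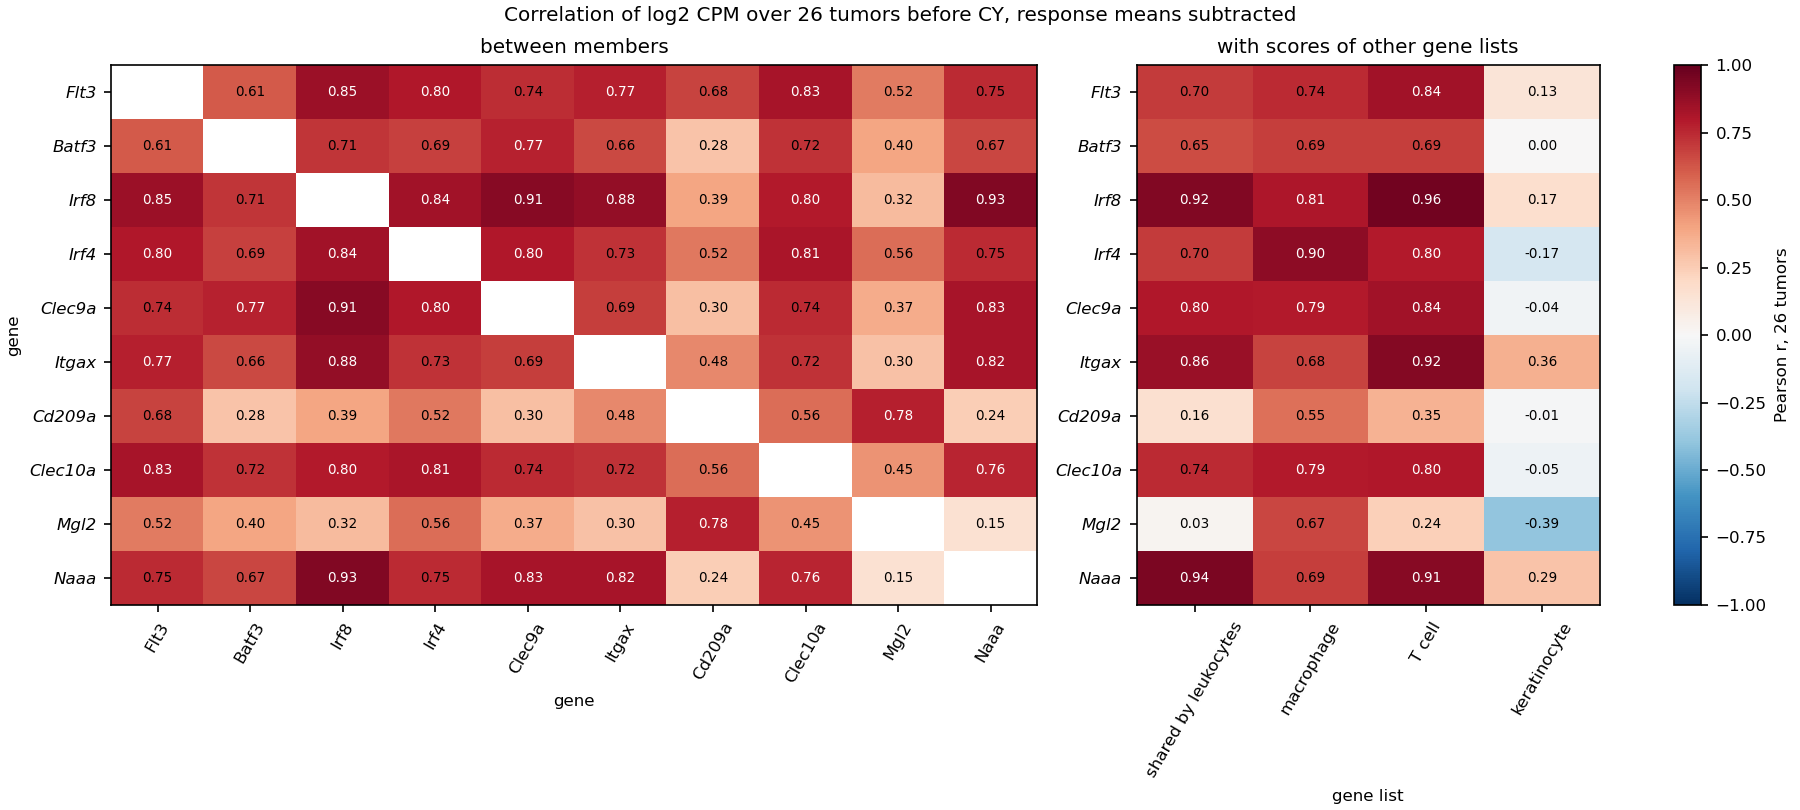
Pearson r of log2 CPM over 26 tumors before CY, response means subtracted, between the 10 genes (left) and with scores of leukocyte, macrophage, T cell and keratinocyte genes (right), on a color scale from -1 to 1. Cd209a and Mgl2 form the paler rows and columns, with r of 0.78 between them.

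Of the genes with a mean of at least 1 CPM, those most like each member over the same 26 tumors are given with r in brackets. Flt3 was most like Cd4 (0.91), Cxcl12 (0.90) and Cd24a (0.90). For Batf3 they were E230029C05Rik (0.85), Batf (0.84) and Gm15056 (0.83), and for Irf8 Cxcl16 (0.97), Cd2 (0.96) and Mpeg1 (0.96). Irf4 had Ncf1 (0.92), Aoah (0.91) and Lgmn (0.90) as its nearest genes, while Clec9a had Irf8 (0.91), Cd86 (0.90) and Itgam (0.90). The nearest to Itgax were H2-Ab1 (0.93), H2-DMb1 (0.93) and Ipcef1 (0.93), 2 of them chains of MHC class II proteins. Naaa followed Lyn (0.97), Fgl2 (0.96) and Aif1 (0.96), and Clec10a Mmp19 (0.92), C3 (0.92) and C4b (0.90). Cd209a was nearest to Adcy2 (0.82), Atp6v0a1 (0.81) and Cacna1d (0.79), and Mgl2 to Mrc1 (0.92), Cbr2 (0.91) and Nxpe5 (0.90), of which Mrc1 encodes the mannose receptor of macrophages. The highest r was lower for Cd209a and Batf3 than for the other members.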

How the data were processed

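RNA-seq was performed on 46 tumors, each from another mouse. The deposited values were whole-number counts per gene, which the authors made with kallisto on GRCm38.p6, and how transcripts were summed to genes is not given in the sources used here. The labels state single-end reads and the methods differ from the labels on their length. The table ends within Pax7, and 1 incomplete row was left out. CPM were computed with TMM factors. Tests used edgeR 4.0.16 (quasi-likelihood, glmQLFit in its legacy form, filterByExpr, R 4.3.3) and p-values were adjusted by Benjamini-Hochberg over all genes tested (FDR under 0.1). Each time point had its own fit for CR against PR, and days and interactions were fitted to all 46 tumors together. Values after ± are standard errors. Cell type scores are means of standardised log2 CPM. DESeq2 1.42.0, limma 3.58.1 (voom), other filters, covariates, thinned libraries and left-out tumors were alternatives, and scripts were tested on simulated data. All members were named, with up to 3 genes of smallest p for each other dendritic cell list, defining markers for other cells and the 3 genes of highest r. Flt3l, Csf2, Cd207, Epcam, Cldn1, Bst2, Irf7, Ly6c2, Ms4a4c, Fn1 and Cx3cr1 are list genes, and Itgad and Clec1b are sequence relatives. All were named outside that rule after their values were seen. The members and lists were chosen with earlier results of these data known. Promoters came from RefSeq (GRCm38.p6), and gene positions from GENCODE on the same build.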

Additional observations from a re-analysis of the deposited data

Results flagged for a closer look

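In 5 of 40 groups of 5 tumors tested, the highest or lowest tumor stood far from the rest, judged by its gap to the nearest tumor as a share of the range of the group. Chance gives about 1 in 20 for independent groups of normal values. These 40 groups hold the same tumors for each gene and are not independent, so the 5 cannot be set against that rate. Irf4 was at 163 CPM in the CR tumor CT7_3 at day 7 against 105 CPM in the next (share 0.864). At the same day it was at 192 CPM in the PR tumor CT7_1 against 129 CPM in the next (share 0.717). Clec9a was at 6.39 CPM in the PR tumor CT3_9 at day 3 against 3.38 CPM (share 0.818). In the CR tumor CT3_8 of day 3, Itgax was at 57.1 CPM against 33.1 CPM (share 0.81) and Mgl2 at 55.3 CPM against 29.1 CPM (share 0.779). The leukocyte genes summed to 4929 CPM in CT3_9 and 4736 CPM in CT3_8, the highest values of that day.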

How the results depend on the processing

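No paired analysis was possible because each tumor came from another mouse and the labels give no replicate numbers that groups share. All 10 members rose at day 7 and from day 3 to day 7 in every fit but the 1 with the leukocyte score, which called 6 members in each (4828 and 2490 genes, against 11331 and 9940). Over the alternatives other than left-out tumors, 919 of 970 member values and 171 of 194 counts kept their direction and call or stayed within 1.5 times. The setting of an FDR under 0.05 reused the main values, so directions could not change there. The summed pair was entered for both Clec10a and Mgl2. In CR versus PR before CY the number of members called was 0 in edgeR, 2 in DESeq2 and 3 in limma-voom, and 0 to 3 when each tumor was left out. The number of genes called was 1 in edgeR, 443 in DESeq2, 1188 in limma-voom, 0 with the leukocyte score, 0 without the tumors over 10 CPM of Krt5, 8 with all 46 tumors in 1 model, 150 with a covariate for title numbers above 14, and 1 to 874 with each tumor left out. It was also 3 without CT13 and 28 without CT9. CR versus PR called 3 genes in DESeq2 at day 3 (0 to 1 over left-out tumors, 1 without CT3_1), and 5 in DESeq2 and 1 in limma-voom at day 7 (0 to 1, with 1 without CT7_6 or CT7_10). The difference of CR and PR at day 3 against before CY called 3 in DESeq2 and 0 to 10 over left-out tumors, 10 of them without CT15. At day 7 it called 40 in DESeq2, 0 in limma-voom, 0 at an FDR under 0.05, 3 with skin and muscle scores, 0 with the leukocyte score, 0 without the tumors over 10 CPM of Krt5 and 4 in thinned libraries. Over left-out tumors it called 0 to 94, with 94 without CT7_8, 31 without CT7_2, 7 without CT7_5 and 0 without CT7_1, CT7_4 or CT7_6. With limma-voom, the sign of the log2 fold change turned in CR versus PR at day 7 for Clec9a (0.052). With skin and muscle scores as covariates it turned in CR versus PR before CY for Clec9a (-0.11) and in CR versus PR at day 3 for Clec9a (-0.19), Itgax (-0.030) and Naaa (-0.056). With the leukocyte score as a covariate it turned in CR versus PR before CY for Batf3 (-0.13), Irf4 (-0.028), Clec9a (-0.29), Clec10a (-0.085) and Naaa (-0.14), in CR versus PR at day 3 for Irf8 (-0.025), Clec9a (-0.067), Itgax (-0.069) and Naaa (-0.080), in CR versus PR at day 7 for Flt3 (0.022) and Clec9a (0.091), in day 3 versus before CY for Itgax (-0.29), in day 7 versus before CY for Flt3 (-0.59) and Clec9a (-0.43), in the difference of CR and PR at day 3 against before CY for Irf4 (0.10), Clec9a (0.32), Clec10a (0.20), Mgl2 (0.067) and Naaa (0.026) and in the difference of CR and PR at day 7 against before CY for Clec9a (0.40) and Naaa (0.14). Without the tumors over 10 CPM of Krt5 it turned in CR versus PR at day 3 for Clec9a (-0.062), in CR versus PR at day 7 for Flt3 (0.23), Batf3 (0.15), Clec9a (0.19), Clec10a (0.13) and Naaa (0.057), in the difference of CR and PR at day 3 against before CY for Mgl2 (0.15) and in the difference of CR and PR at day 7 against before CY for Batf3 (0.034) and Clec9a (0.050). With Clec10a and Mgl2 summed it turned in day 3 versus before CY for Mgl2 (0.19). With libraries thinned to the lowest total it turned in the difference of CR and PR at day 3 against before CY for Clec9a (0.085). Over left-out tumors it turned in CR versus PR before CY for Clec9a (-0.0039 to 0.14), in CR versus PR at day 3 for Flt3 (-0.18 to 0.034), Irf8 (-0.049 to 0.20), Clec9a (-0.074 to 0.31), Itgax (-0.13 to 0.24), Mgl2 (-0.10 to 0.39), Naaa (-0.065 to 0.16), in CR versus PR at day 7 for Flt3 (-0.19 to 0.060), Clec9a (-0.21 to 0.15), Cd209a (-0.089 to 0.24), Naaa (-0.17 to 0.020), in day 3 versus before CY for Itgax (-0.057 to 0.12), Mgl2 (-0.22 to 0.039), in the difference of CR and PR at day 3 against before CY for Irf4 (-0.21 to 0.021), Clec9a (-0.14 to 0.25), Cd209a (-0.23 to 0.058), Clec10a (-0.32 to 0.025), Mgl2 (-0.39 to 0.089) and in the difference of CR and PR at day 7 against before CY for Clec9a (-0.25 to 0.088). None of these values was called, except that of Itgax at day 3 with the leukocyte score (adjusted p = 0.00231), and the cause was not tested. Irf8 at day 3 was not called without CT3_9 (0.23). No scaling moved the median of all genes by over 0.1 on the log2 scale. TMM and the size factors of DESeq2 both centre the genes near 0, so this median could hardly move. Depth limits Batf3 most, since its counts before CY were the lowest of the members.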
